A study of Homo sapiens with 8 samples.

Results

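The 9 genes described here build the pathway by which a cell displays peptides of its own proteins on MHC class I molecules: HLA-B, HLA-C, HLA-E, B2M, TAP1, TAP2, TAPBP, PSMB8 and PSMB9. They were taken by symbol and are 9 of the 20531 genes in each of the 8 deposited tables. Poly(A) RNA was sequenced from the breast cancer cell lines SKBR-3 (HER2+, ER-/PR-) and BT474m1 (HER2+, ER+/PR+). Each line was grown in RPMI with 10% fetal bovine serum and was kept for 48 h in the vehicle DMSO, in 300 nM lapatinib, which blocks the kinases EGFR and HER2, in 300 nM JQ1, which displaces BET bromodomain proteins from chromatin, or in lapatinib and JQ1 combined. Each of the 8 groups was 1 library, so that no difference within a line could be set against a spread between replicate cultures, and no p-value is given. Both are tumor cell lines grown alone, so that the T cells which read these molecules are not part of the model.

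Class I molecules consist of a polymorphic heavy chain and the invariant light chain beta-2-microglobulin. The proteasome cuts cytosolic proteins into peptides, TAP1 and TAP2 pump these into the endoplasmic reticulum, and tapasin (TAPBP) holds empty class I molecules at the pump until a peptide fits. CD8+ T cells read the loaded complexes, and natural killer cells sense their absence. Interferon raises most genes of the pathway, and exchanges catalytic subunits of the proteasome for PSMB8, PSMB9 and PSMB10.

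Apart from B2M on chromosome 15, the genes lie in the MHC on chromosome 6. In the GENCODE annotation of GRCh38, TAP2 (chr6:32825415-32838739), PSMB8 (chr6:32840717-32844047) and TAP1 (chr6:32845209-32853704) follow one another on the minus strand. PSMB9 (chr6:32854192-32859851) lies on the plus strand with its start 487 bases from that of TAP1, so that both genes are transcribed away from the stretch between them. HLA-B (chr6:31353875-31357179), HLA-C (chr6:31268749-31272092), HLA-E (chr6:30489509-30494194) and TAPBP (chr6:33299694-33314078) stand apart from that cluster, and B2M is at chr15:44711517-44718145. The build behind the tables is uncertain, so that these positions serve to place the genes only.

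The 250 bases upstream of the start were matched for 8 of the 9 genes in RefSeq (GRCh38.p14). They are shown for HLA-B and HLA-C, whose levels differed most between the lines, for B2M, which rose with JQ1, and for PSMB8, TAP1 and PSMB9, neighbours whose values were lower with JQ1 in BT474m1. Capitals mark matches, on either strand, to an interferon response element (GAAANGAAA or GAAANNGAAA), a GAS element (TTCNNNGAA), a kappaB site or a CCAAT box. The windows are chr6:31357180-31357429 (HLA-B, minus strand), chr6:31272093-31272342 (HLA-C, minus), chr15:44711267-44711516 (B2M, plus), chr6:32853705-32853954 (TAP1, minus), chr6:32844048-32844297 (PSMB8, minus) and chr6:32853942-32854191 (PSMB9, plus).
HLA-B: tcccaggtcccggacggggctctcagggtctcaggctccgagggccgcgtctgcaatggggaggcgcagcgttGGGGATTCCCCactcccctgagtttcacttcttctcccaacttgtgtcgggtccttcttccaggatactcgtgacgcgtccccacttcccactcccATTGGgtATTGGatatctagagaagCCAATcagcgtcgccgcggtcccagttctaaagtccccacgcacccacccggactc
HLA-C: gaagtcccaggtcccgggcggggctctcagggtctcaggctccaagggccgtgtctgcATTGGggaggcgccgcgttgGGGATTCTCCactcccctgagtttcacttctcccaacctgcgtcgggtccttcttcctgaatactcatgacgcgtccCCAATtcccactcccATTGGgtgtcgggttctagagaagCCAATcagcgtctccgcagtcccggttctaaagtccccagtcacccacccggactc
B2M: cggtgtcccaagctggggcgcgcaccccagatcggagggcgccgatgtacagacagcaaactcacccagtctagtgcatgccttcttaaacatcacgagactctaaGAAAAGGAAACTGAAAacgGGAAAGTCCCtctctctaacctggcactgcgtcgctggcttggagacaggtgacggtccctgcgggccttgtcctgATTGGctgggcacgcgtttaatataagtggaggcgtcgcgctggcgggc
TAP1: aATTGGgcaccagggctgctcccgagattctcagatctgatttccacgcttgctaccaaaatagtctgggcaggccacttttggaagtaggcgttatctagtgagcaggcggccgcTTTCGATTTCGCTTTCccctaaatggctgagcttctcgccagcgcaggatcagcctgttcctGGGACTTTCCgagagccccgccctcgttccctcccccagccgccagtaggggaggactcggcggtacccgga
PSMB8: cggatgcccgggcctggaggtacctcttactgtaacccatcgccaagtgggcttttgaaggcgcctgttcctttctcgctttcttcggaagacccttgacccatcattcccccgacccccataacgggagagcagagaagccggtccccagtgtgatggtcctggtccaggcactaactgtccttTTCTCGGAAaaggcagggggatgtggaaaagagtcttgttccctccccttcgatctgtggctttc
PSMB9: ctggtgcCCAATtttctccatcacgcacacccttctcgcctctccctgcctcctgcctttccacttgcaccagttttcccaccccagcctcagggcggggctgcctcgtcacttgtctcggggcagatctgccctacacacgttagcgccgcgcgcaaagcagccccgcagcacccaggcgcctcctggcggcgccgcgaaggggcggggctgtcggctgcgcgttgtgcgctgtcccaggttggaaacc

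The windows of HLA-B and HLA-C were alike at 226 of 246 aligned bases (91.9%), and each held a kappaB match beside several CCAAT boxes. B2M and TAP1 each held overlapping interferon response elements, a kappaB match and a CCAAT box. The windows of TAPBP and TAP2, not printed, also held an interferon response element, and that of TAPBP a kappaB match. PSMB8 held a GAS match and none of the other motifs, whereas PSMB9 held a CCAAT box only. The windows of TAP1 and PSMB9 overlap, and the CCAAT box counted for each is the same stretch of bases. Among 35116 windows of the same length, 5.48% held the interferon response element, 6.57% the GAS element, 9.96% the kappaB site and 32.0% the CCAAT box. A match is a description of letters and not a site of binding.

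Each value is a normalised read count on a scale where the authors set the upper quartile of genes above 0 to 1000, and the libraries held 21419990 to 34112250 reads on genes. The 6 epithelial markers summed to 186304 to 661601 units per library, but CDH1 (E-cadherin) stood at 2.58 to 15.1 in the SKBR-3 libraries against 19413 or more in those of BT474m1. Of 10 immune cell markers, 4 to 7 were listed at 0 and their sum was 29.7 to 421 units. CD68 made up most of that sum in SKBR-3. PTPRC (CD45), which defines leukocytes, was at 3.38 or less. The 6 stromal and endothelial markers summed to 35.8 to 1415 units. In BT474m1 that sum, led by COL1A1, was 1415 in the DMSO library, 1245 under lapatinib, 410 under JQ1 and 346 under the combination. In SKBR-3 it was 147, 60.5, 83.1 and 35.8 in the same order, also led by COL1A1. The part of these markers in the results was not tested. All 9 genes passed the filter (10 units or more in at least 1 library), PSMB9 only through BT474m1.

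Without drug, the lines differed most in the classical heavy chains HLA-B and HLA-C. HLA-C was 50.01 in SKBR-3 and 6074 in BT474m1, and HLA-B was 51.3 and 772. The log2 fold change of BT474m1 over SKBR-3, from values with 1 added, was 6.90 for HLA-C (95% counting interval 6.56 to 7.25) and 3.89 for HLA-B (3.54 to 4.23). In all 4 pairs of libraries with the same treatment, HLA-B and HLA-C were higher in BT474m1. HLA-E, a nonclassical heavy chain that is read by receptors of natural killer cells, was 1699 in SKBR-3 and 891 in BT474m1 (log2 fold change -0.93, interval -1.02 to -0.84).

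Among these 3 heavy chains, SKBR-3 thus held mostly HLA-E. Of their summed values per kilobase of transcript, HLA-E took 91.0% (DMSO), 92.2% (lapatinib), 92.4% (JQ1) and 94.9% (both drugs) in SKBR-3. In BT474m1 it took 7.30%, 16.5%, 7.72% and 15.6% in the same order, and HLA-C took 82.2%, 75.2%, 83.8% and 78.3%. B2M, the light chain of all of them, differed far less, with 4678 and 3705 units.

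Heavy chain genes resemble one another and differ between people, which bears on how reads are assigned. The reference transcripts of HLA-B and HLA-C were 92.5% identical, and those of HLA-B and HLA-E 82.0%. The recovered read number was fractional in 8 of 8 libraries for HLA-B and HLA-E, in 7 for TAP1 and TAP2 and in 6 for HLA-C, and whole in all 8 for B2M, TAPBP, PSMB8 and PSMB9. Of the stretches of 50 bases in the TAP2 transcript, 35.3% also occur in an overlapping gene model. How far the alleles of the lines match the reference was not tested, so that heavy chain levels between lines are uncertain in a way the intervals do not cover.

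**Figure D1:**
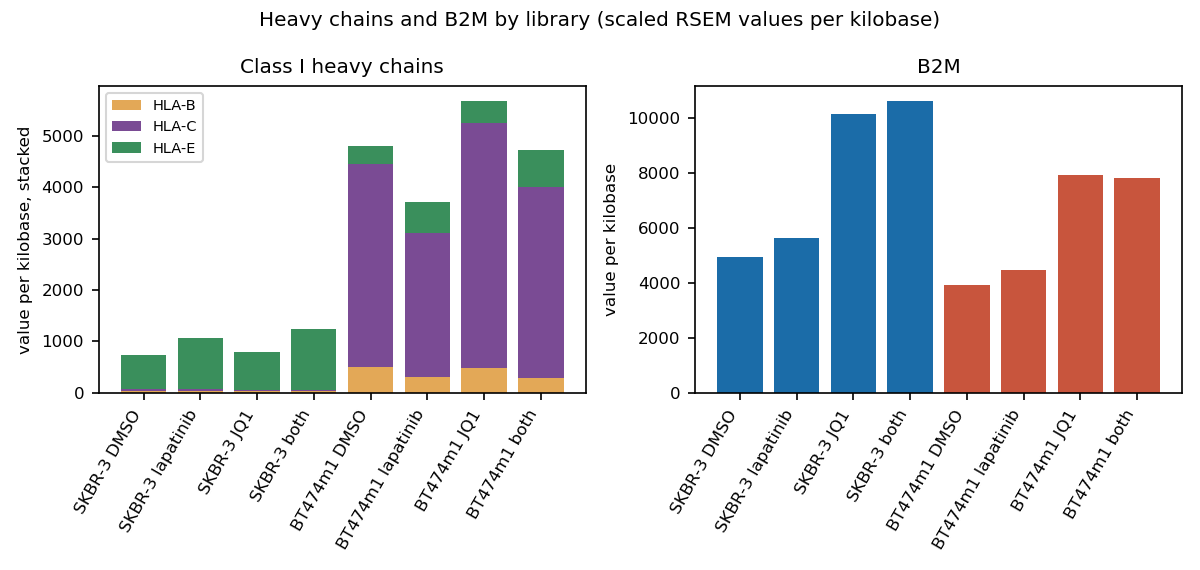
Values of the class I heavy chains HLA-B, HLA-C and HLA-E, stacked (left), and of B2M (right) in each of the 8 libraries, in scaled RSEM units per kilobase of transcript on linear axes; each bar is 1 library. In SKBR-3 the stack is almost all HLA-E, in BT474m1 it is mostly HLA-C, and B2M is highest in the JQ1 and combination libraries of both lines (7829 to 10649).

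Of the other genes, PSMB9, a catalytic subunit of the immunoproteasome, had 6.44 units (9 reads) in SKBR-3 and 49.98 (106 reads) in BT474m1, a log2 fold change of 2.78 (interval 1.89 to 3.74). HLA-C, HLA-B and PSMB9, 3 of the 9 genes, were thus at least 2-fold higher in BT474m1, where 26.8% of the 14429 genes tested were, and 0 were at least 2-fold lower, as 15.6% of all genes were. PSMB9 passed the filter of 10 units only through BT474m1, so that its place in this count partly follows from the filter. TAPBP was 1476 in SKBR-3 and 2710 in BT474m1, TAP1 454 and 579, and TAP2 712 and 375. Over the 4 treatments, which are not replicates, TAP2 spanned 427 to 712 in SKBR-3 and 159 to 375 in BT474m1. PSMB8 was nearly level between the lines, with 54.4 and 58.9 units (log2 fold change 0.11, interval -0.30 to 0.54). The median over the 9 genes was 0.35, beside 0.21 over all genes.

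Levels of different genes were compared per kilobase of transcript. With DMSO, SKBR-3 had its highest value per kilobase for B2M (4961), followed by HLA-E (667), TAPBP (428), TAP1 (169), TAP2 (126), PSMB8 (48.4), HLA-B (33.4), HLA-C (32.4) and PSMB9 (6.33). The counting intervals of HLA-B, HLA-C and PSMB8 overlapped. BT474m1 had HLA-C (3939 per kilobase) level with B2M (3929), then TAPBP (785), HLA-B (503), HLA-E (350), TAP1 (216), TAP2 (66.5), PSMB8 (52.4) and PSMB9 (49.1). The intervals of HLA-C and B2M overlapped there, as did those of PSMB8, PSMB9 and, for PSMB8, TAP2.

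**Figure D2:**
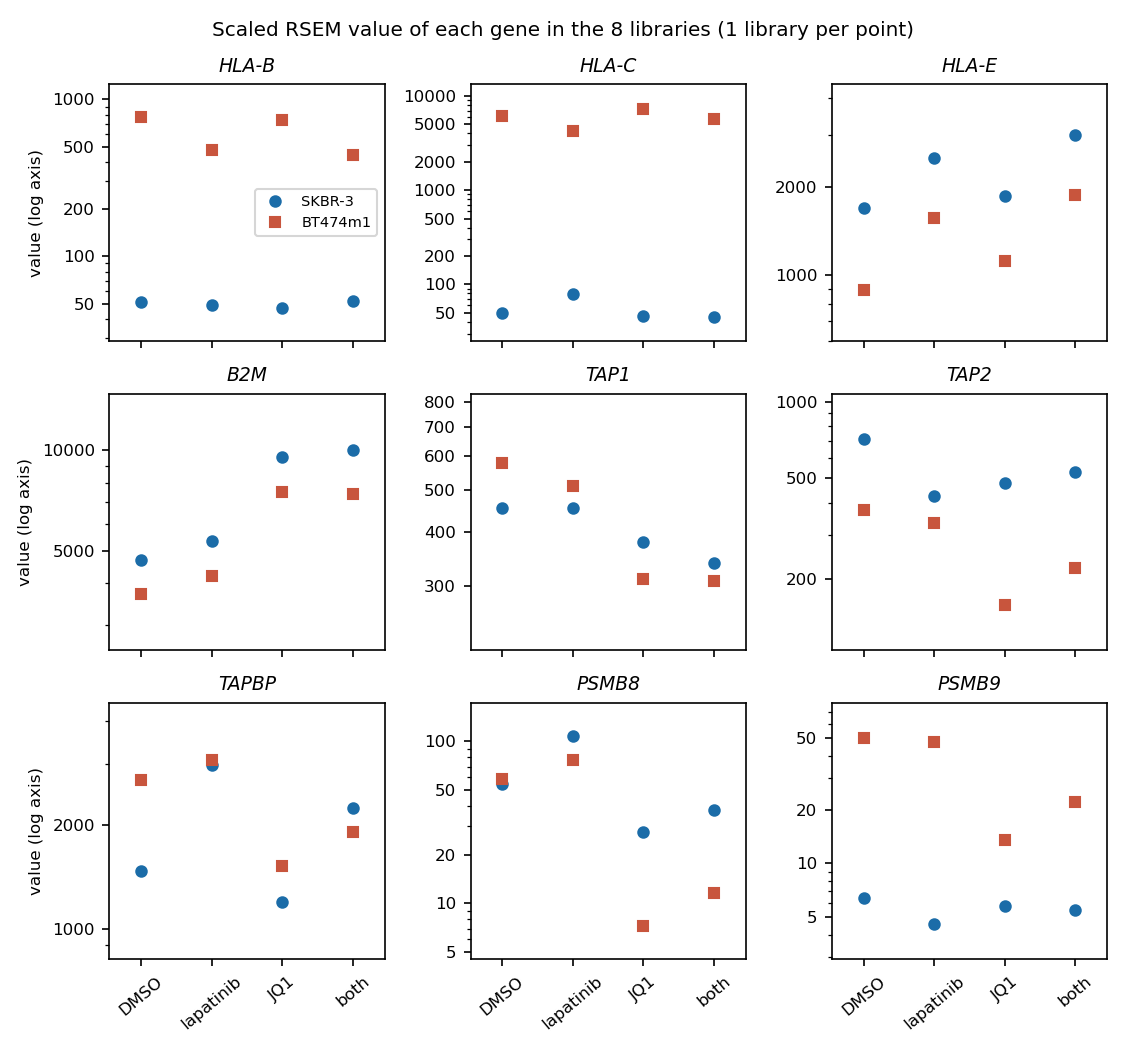
Scaled RSEM value of each of the 9 genes (log axes, a different range in each panel) with DMSO, lapatinib, JQ1 and both drugs; circles are SKBR-3, squares BT474m1, and each point is 1 library. HLA-B, HLA-C and PSMB9 have higher values in BT474m1, PSMB9 having passed the filter only through that line, and TAP2 has lower ones. B2M is higher with JQ1 in both lines (9573 against 4678 and 7494 against 3705), and PSMB8 has its lowest value with JQ1 in both lines.

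With JQ1, B2M rose in both lines, while PSMB8, PSMB9 and TAP2 fell in BT474m1. B2M was 4678 with DMSO and 9573 with JQ1 in SKBR-3, and 3705 and 7494 in BT474m1. It rose 2.05-fold in SKBR-3 (log2 fold change 1.03, interval 0.99 to 1.08) and 2.02-fold in BT474m1 (1.02, 0.98 to 1.06), at the 96.5 and 95.4 percentiles of all genes. With libraries scaled to equal totals these log2 fold changes were 0.89 and 0.99, so that the call of 2-fold depends on the scaling while the direction does not. In SKBR-3, B2M was the 1 gene of the 9 that rose, where 3.75% of all genes did, and 0 fell, where 11.8% did. In BT474m1 it was again 1 of 9, where 4.81% of all genes rose, and 3 fell (PSMB8, PSMB9 and TAP2), where 11.8% of all genes did. The sum of the 6 epithelial markers was 274132 with DMSO and 661601 with JQ1 in SKBR-3, where the keratins KRT8, KRT18 and KRT19 rose, and 186304 and 215853 in BT474m1, where none of the 6 passed 2-fold. The part of these markers in the results was not tested.

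PSMB8, the chymotrypsin-like catalytic subunit of the immunoproteasome, had 58.9 units with DMSO and 7.25 with JQ1 in BT474m1 (125 and 15 reads), and 54.4 and 27.7 in SKBR-3 (76 and 43 reads). It fell 7.27-fold in BT474m1 (log2 fold change -2.86, interval -3.61 to -2.15), and its log2 fold change in SKBR-3 was -0.95 (-1.50 to -0.41). PSMB9 was 49.98 with DMSO and 13.5 with JQ1 in BT474m1, a log2 fold change of -1.81 (interval -2.42 to -1.23). In SKBR-3 it had 6 to 9 reads in every library, and no change was detectable at this depth (-0.13, interval -1.39 to 1.14).

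The transporter followed the same order. TAP2 was 375 with DMSO and 159 with JQ1 in BT474m1, and fell by 1.23 on the log2 scale (interval -1.42 to -1.05). In SKBR-3 it was 712 and 476 (-0.58, -0.72 to -0.44). TAP1 was 579 and 312 in BT474m1 (-0.89, -1.03 to -0.75) and 454 and 380.5 in SKBR-3 (-0.26, -0.42 to -0.09). Tapasin (TAPBP) was 2710 and 1521 in BT474m1 (-0.83, -0.90 to -0.77) and 1476 and 1201 in SKBR-3 (-0.30, -0.39 to -0.21). For each of these 5 genes except PSMB9 in SKBR-3, the interval lay below 0 in both lines.

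The heavy chains stood closer to their DMSO values. HLA-E was 1699 with DMSO and 1861 with JQ1 in SKBR-3, and 891 and 1117 in BT474m1. HLA-C was 50.01 and 46.4 in SKBR-3 and 6074 and 7342 in BT474m1, and HLA-B was 51.3 and 46.6, and 772 and 739. Their log2 fold changes with JQ1 lay between -0.14 and 0.33. The median over the 9 genes was -0.14 in SKBR-3 and -0.83 in BT474m1, beside -0.08 and -0.06 over all genes, and 8 of 9 genes had the same sign in both lines.

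With lapatinib, TAPBP rose in SKBR-3, and HLA-E and PSMB8 stood above their DMSO values in both lines. HLA-E was 1699 with DMSO and 2496 with lapatinib in SKBR-3 (log2 fold change 0.55, interval 0.48 to 0.63), and 891 and 1563 in BT474m1 (0.81, 0.72 to 0.90). TAPBP was 1476 and 2987 in SKBR-3, a rise of 2.02-fold (1.02, 0.94 to 1.09), and 2710 and 3079 in BT474m1 (0.18, 0.13 to 0.24). With equal totals the change of TAPBP in SKBR-3 was 0.96. PSMB8 was 54.4 and 108 in SKBR-3 (0.98, 0.57 to 1.39) and 58.9 and 77.1 in BT474m1 (0.38, 0.02 to 0.74). The sum of the 10 immune cell markers was also higher with lapatinib, 198 and 421 in SKBR-3 and 29.7 and 114 in BT474m1. It was carried by CD68 (178 to 407 and 11.8 to 27.7) and, in BT474m1, LYZ (11.8 to 80.7). The 6 epithelial markers summed to 274132 with DMSO and 425549 with lapatinib in SKBR-3, where ERBB2 rose (112656 to 277859). In BT474m1 they summed to 186304 and 202133, and 0 passed 2-fold. The part of both sets of markers in the results was not tested.

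HLA-C parted between the lines under lapatinib. HLA-C was 50.01 with DMSO and 78.5 with lapatinib in SKBR-3 (0.64, interval 0.20 to 1.10), and 6074 and 4302 in BT474m1 (-0.50, -0.54 to -0.46). HLA-B was 51.3 and 49.2 in SKBR-3 (-0.06, -0.57 to 0.42) and 772 and 474 in BT474m1 (-0.70, -0.83 to -0.58). TAP2 was 712 and 427 in SKBR-3 (-0.74, -0.89 to -0.59) and 375 and 334 in BT474m1 (-0.17, -0.32 to -0.01). B2M, TAP1 and PSMB9 had log2 fold changes from -0.41 to 0.19 in both lines, and TAP1 in SKBR-3 was 454 in both libraries. In SKBR-3, TAPBP alone of the 9 genes was at least 2-fold higher, where 11.1% of all genes were, and 0 were lower, where 9.44% were. In BT474m1, 0 of 9 genes passed 2-fold in either direction, where 14% of all genes did upward and 8.06% downward. The median over the 9 genes was 0.19 in SKBR-3 and -0.07 in BT474m1, beside 0.05 and 0.07 over all genes.

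**Figure D3:**
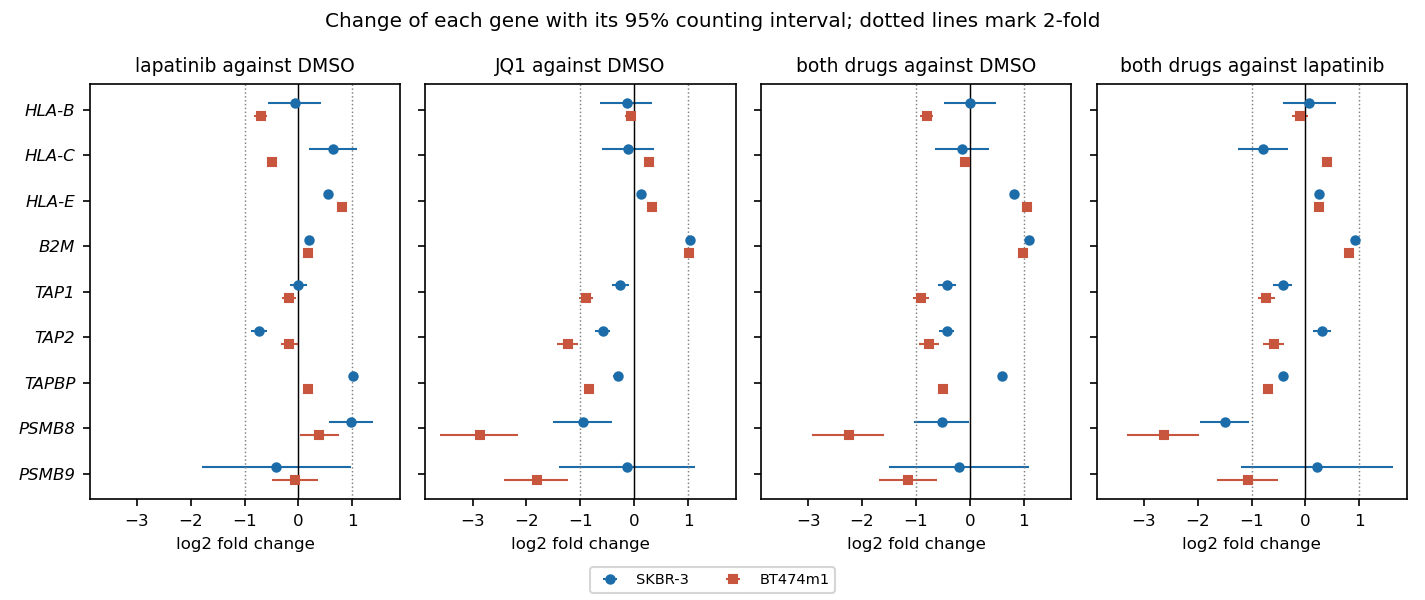
Log2 fold change of each of the 9 genes for lapatinib, JQ1 and both drugs against DMSO and for both drugs against lapatinib; circles are SKBR-3, squares BT474m1, bars are 95% counting intervals (some narrower than the symbol), and dotted lines mark 2-fold. With JQ1, B2M lies at 1.03 and 1.02 while PSMB8, TAP1, TAP2 and TAPBP lie to the left of 0 in both lines, further in BT474m1.

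With both drugs, B2M and HLA-E were both high. B2M reached 10042 in SKBR-3 and 7383 in BT474m1, and its log2 fold changes over DMSO were 1.10 (interval 1.06 to 1.14) and 0.99 (0.95 to 1.04). HLA-E had its highest value of each line in this library, 2988 in SKBR-3 (0.81, 0.74 to 0.89) and 1873 in BT474m1 (1.07, 0.99 to 1.15). In SKBR-3, 1 of 9 genes was at least 2-fold higher (B2M), where 10.8% of all genes were, and 0 were lower, where 20.8% were. In BT474m1, 1 was higher (HLA-E), where 14.2% of all genes were, and 2 were lower (PSMB8 and PSMB9), where 15.3% were. The medians over the 9 genes were -0.14 and -0.76, beside -0.08 and 0.00 over all genes. The sum of the 6 epithelial markers was 274132 with DMSO and 572460 with both drugs in SKBR-3, where 4 of them rose (KRT8, KRT18, ERBB2 and, at 4.29 to 15.1, CDH1), and 186304 and 208624 in BT474m1, where 0 passed 2-fold. Their part in the results was not tested.

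PSMB8 was 37.8 with both drugs in SKBR-3 and 11.7 in BT474m1, where it had fallen 4.73-fold from DMSO (log2 fold change -2.24, interval -2.93 to -1.59). PSMB9 was 22.2 in BT474m1 (-1.14, -1.69 to -0.61). TAPBP was 2249 in SKBR-3 and 1914 in BT474m1, above DMSO in the one (0.61, 0.53 to 0.69) and below it in the other (-0.50, -0.56 to -0.44). TAP1 was 339 and 308 (-0.42 and -0.91), TAP2 528 and 222 (-0.43 and -0.76), HLA-B 51.7 and 443 (0.01 and -0.80) and HLA-C 45.3 and 5712 (-0.14 and -0.09).

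Set against lapatinib alone, the combination shows JQ1 added to an inhibited HER2. PSMB8 was 108 with lapatinib and 37.8 with both drugs in SKBR-3 and 77.1 and 11.7 in BT474m1. It fell by 1.49 on the log2 scale in SKBR-3 (interval -1.95 to -1.04) and 6.17-fold in BT474m1 (interval -3.32 to -1.98 on the log2 scale). PSMB9 was 47.6 and 22.2 in BT474m1 (-1.07, -1.64 to -0.51). B2M was 0.91 higher on the log2 scale in SKBR-3 and 0.81 in BT474m1. In SKBR-3, 0 of 9 genes were at least 2-fold higher, where 3.22% of all genes were, and 1 was lower, where 16.2% were. In BT474m1, 0 were higher, where 5.2% of all genes were, and 2 were lower, where 12.5% were. The DMSO libraries do not enter this comparison, but the library with both drugs is the one of the preceding comparison.

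Set against JQ1 alone, the combination shows lapatinib added, and HLA-E was 1861 with JQ1 and 2988 with both drugs in SKBR-3 and 1117 and 1873 in BT474m1. TAPBP was 1201 and 2249, and 1521 and 1914. HLA-B was 739 and 443 in BT474m1 (log2 fold change -0.74, interval -0.86 to -0.61). In SKBR-3, 0 of 9 genes passed 2-fold upward, where 9.79% of all genes did, and 0 downward, where 12.3% did. In BT474m1, 0 passed upward, where 12.4% did, and 0 downward, where 7.27% did. For TAP2 the log2 fold changes of the single drugs added up to -1.31 in SKBR-3 and -1.40 in BT474m1, and that of the combination was -0.43 and -0.76. For B2M that sum was 1.22 and 1.20, against 1.10 and 0.99. In SKBR-3 it was 0.53 for HLA-C and 0.03 for PSMB8, against -0.14 and -0.51. For PSMB9 in BT474m1 it was -1.88, against -1.14.

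PSMB8 and PSMB9 replace PSMB5 and PSMB6 in the immunoproteasome, as PSMB10 replaces PSMB7. PSMB10 was 152 with DMSO and 59.4 with JQ1 in BT474m1 (log2 fold change -1.34, interval -1.65 to -1.04), and 193 and 226 in SKBR-3 (0.22, -0.01 to 0.45). With JQ1 in BT474m1, PSMB5 (-0.12), PSMB6 (-0.36) and PSMB7 (0.00) stood close to DMSO. In SKBR-3 they were at -0.65, -0.53 and -0.39, beside -0.95 for PSMB8 and -0.13 for PSMB9. With lapatinib, PSMB8 (0.98 and 0.38) and PSMB10 (0.87 and 0.74) were above DMSO in SKBR-3 and BT474m1, PSMB9 was at -0.41 and -0.07, and PSMB5 (-0.75 and -0.56), PSMB6 (-0.90 and -0.71) and PSMB7 (-0.70 and -0.22) were below. Of the 14 constitutive 20S proteasome genes, 0 passed 2-fold with JQ1 or with lapatinib in either line, and their medians were -0.17 (SKBR-3) and 0.19 (BT474m1) with JQ1 and -0.71 and -0.30 with lapatinib. Of all genes, 3.75% and 4.81% rose and 11.8% fell in each line with JQ1, and 11.1% and 14% rose and 9.44% and 8.06% fell with lapatinib. With both drugs 5 of 14 fell in SKBR-3 (PSMA7, PSMB2, PSMB3, PSMB5 and PSMB6), and 0 in BT474m1, where 20.8% and 15.3% of all genes did. Of PSMB10 and the proteasome activators PSME1, PSME2 and PSME3, PSMB10 fell with JQ1 in BT474m1 and PSME2 with both drugs in SKBR-3 (918 to 347).

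**Figure D4:**
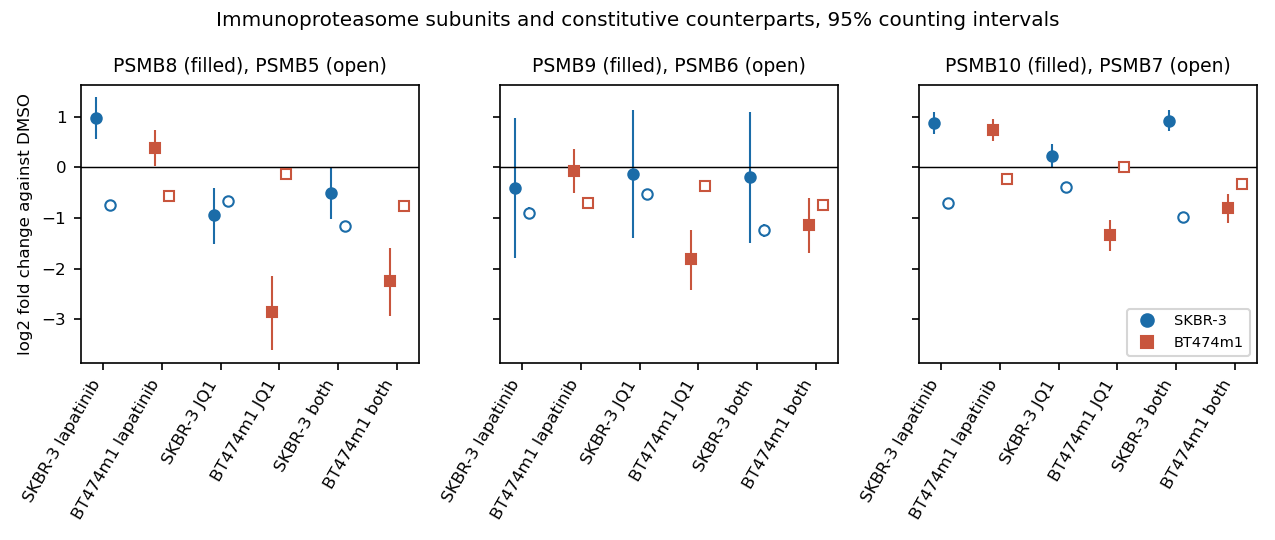
Log2 fold change against DMSO of the immunoproteasome subunits PSMB8, PSMB9 and PSMB10 (filled) and of their constitutive counterparts PSMB5, PSMB6 and PSMB7 (open) with lapatinib, JQ1 and both drugs; circles are SKBR-3, squares BT474m1, bars are 95% counting intervals. With JQ1 in BT474m1 the filled squares lie at -2.86, -1.81 and -1.34 and the open squares between -0.36 and 0.00.

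Genes that act after the proteasome included others that were lower with JQ1 in BT474m1. ERAP1, which trims peptides in the endoplasmic reticulum, was 284 (DMSO), 456 (lapatinib), 75.2 (JQ1) and 133 (both drugs) in BT474m1. In SKBR-3 it was 324, 627, 171 and 348 in the same order. ERAP2, its relative, was 91.9, 186, 7.73 and 12.8 in BT474m1 and 3.58 or less in SKBR-3. TAPBPL, a peptide editor related to tapasin, was 271, 473, 111 and 173 in BT474m1. With JQ1, 2 of 6 trimming genes fell in BT474m1 (ERAP1 and ERAP2) and 1 in SKBR-3 (ERAP2, at 5 and 2 reads, interval -2.32 to 0.77), and of 5 genes of the loading complex and peptide editing 1 fell in BT474m1 (TAPBPL) and 0 in SKBR-3. Of all genes, 11.8% fell with JQ1 in each line. Calreticulin (CALR), the chaperone of the loading complex, was 8838 with DMSO and 8691 with JQ1 in SKBR-3 and 8802 and 10806 in BT474m1. THOP1, a peptidase that destroys cytosolic peptides, fell with lapatinib in both lines (856 to 325 and 655 to 243).

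Among 19 measured factors that control class I transcription, NLRC5, the class I transactivator, was 2.86 with DMSO in SKBR-3 and 56.6 in BT474m1. It was 5.36, 0.644 and 0.688 with lapatinib, JQ1 and both drugs in SKBR-3 and 27.7, 37.2 and 31.5 in BT474m1. With JQ1, 2 factors rose and 1 fell in SKBR-3 (IRF7 and IRF9, and NLRC5 at 4 and 1 reads, interval -2.17 to 0.72), and 1 rose and 3 fell in BT474m1 (IRF7, and IRF8, NFKB2 and RELB), where 3.75% and 4.81% of all genes rose and 11.8% fell in each line. IRF7 was 119.5 and 296 in SKBR-3 and 93.8 and 248 in BT474m1. With lapatinib 1 factor rose and 0 fell in SKBR-3 (IRF9), and 3 rose and 2 fell in BT474m1 (RFXAP, IRF9 and STAT2, and NLRC5 and IRF8), where 11.1% and 14% of all genes rose and 9.44% and 8.06% fell. IRF9, a partner of STAT proteins in interferon signalling, was the 1 factor that rose in both lines (13.5 to 102 and 115 to 239). With both drugs 5 rose and 4 fell in SKBR-3, where 10.8% and 20.8% of all genes did, and 3 rose and 3 fell in BT474m1, where 14.2% and 15.3% did. IRF1, IRF7 and STAT2, which binds IRF9, rose in both lines (STAT2 from 591 to 1221 and from 631 to 1696), and IRF2 and IRF9 in SKBR-3. Those that fell were RFX5 (1422 to 359), RFXANK (272 to 101), IRF3 (722 to 226) and, at low values, NLRC5 in SKBR-3, and IRF8 (12.3 to 0), NFKB1 (784 to 298) and RELB (173 to 39.1) in BT474m1. RFX5 and RFXANK are subunits of the RFX complex, which binds the promoters of MHC genes. IRF1, an interferon-induced activator of this pathway, was 169.5 with DMSO and 581 with both drugs in SKBR-3, and 127 and 261 in BT474m1.

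Of 15 measured interferon-stimulated genes, 0 rose and 5 fell with JQ1 in SKBR-3, and 1 rose and 8 fell in BT474m1, with medians of -0.61 and -1.29, beside -0.08 and -0.06 over all genes. Of all genes, 3.75% and 4.81% rose with JQ1 and 11.8% fell in each line. The 5 in SKBR-3 were OAS3, BST2 and, at low values, CXCL10 (1.43 to 0), IFIT2 (2.86 to 0.644) and MX1 (5.01 to 1.93). The 8 in BT474m1 were OAS1, OAS3, MX1, GBP2, CXCL10 and, at low values, GBP1 (1.45 to 0), OAS2 (3.30 to 0.483) and IFIT2 (5.66 to 0.966). OAS3, an antiviral enzyme, was 218 with DMSO and 16.9 with JQ1 in BT474m1. With lapatinib 4 rose and 2 fell in SKBR-3 and 2 rose and 4 fell in BT474m1, where 11.1% and 14% of all genes rose and 9.44% and 8.06% fell. Those that rose were IFI6, OAS1, OAS2 and IFIT1 in SKBR-3, IFIT1 at only 0 and 1.53, and IFIT2 and GBP2 in BT474m1. OAS3 and CXCL10 fell in both lines, CXCL10 in SKBR-3 from 1.43 to 0, and so did OAS2 (3.30 to 0.602) and BST2 (1.89 to 0), at low values, in BT474m1. IFI6 was 48.7 (DMSO), 178 (lapatinib), 63.1 (JQ1) and 162 (both drugs) in SKBR-3. In BT474m1 it was 65.1, 56.6, 167 and 186 in the same order, the 1 gene of the list that rose with JQ1 there. With both drugs 2 rose and 6 fell from DMSO in each line, where 10.8% and 14.2% of all genes rose and 20.8% and 15.3% fell. IFI6 rose in both lines, and OAS2 (5.73 to 2.06 and 3.30 to 0.583), OAS3 and CXCL10 (1.43 to 0 in SKBR-3) fell in both. From lapatinib to both drugs 1 rose and 6 fell in SKBR-3, and 2 rose and 8 fell in BT474m1. Of all genes, 3.22% and 5.2% rose there and 16.2% and 12.5% fell. ISG20 (302 to 114 and 84.9 to 36.2), OAS1 and OAS3 fell in both lines in that comparison. Of 10 measured interferon receptors and signalling genes, 1 rose with JQ1 in each line, SOCS1, an inhibitor of JAK kinases (43.7 to 164 and 34.4 to 88.4). Whether these genes had a part in the values of the 9 presentation genes was not tested.

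Of 5 measured class II presentation genes, 1 rose under lapatinib in SKBR-3 and 2 rose in BT474m1, HLA-DMA in both (41.5 to 111 and 10.8 to 35.5) and HLA-DQA1 in BT474m1 (4.87 to 12.3). HLA-DQB1 rose in both lines when the drugs were combined (7.16 to 30.3 and 172 to 410.5), where 10.8% and 14.2% of all genes did. JQ1 alone had already given 29.0 for HLA-DQB1 in SKBR-3, a rise at 2-fold, and the single drugs gave 276 (lapatinib) and 272 (JQ1) in BT474m1. Under the combination, HLA-DQA1 and HLA-DMA also rose in BT474m1. HLA-DRB1 (66.6 to 22.7) and, at low values, CD74 (7.07 to 2.33) fell there, where 15.3% of all genes did. Of 7 genes of PRC2 and other class I silencing factors, EZH2 and DNMT1 fell with lapatinib in both lines, EZH2 from 1115 to 208 (SKBR-3) and from 1701 to 622 (BT474m1), and DNMT1 from 2581 to 758 and from 5221 to 2431. EZH1 rose under lapatinib in BT474m1 (184 to 458) and was 111 and 199 in SKBR-3 (log2 fold change 0.84), and it rose in both lines with both drugs (to 307 in SKBR-3 and 588 in BT474m1). Of the 7, 0 passed 2-fold with JQ1 in either line, where 3.75% and 4.81% of all genes rose and 11.8% fell in each. Of 6 measured ligands of natural killer cell receptors, 1 rose and 3 fell with lapatinib in SKBR-3 and 1 rose and 4 fell in BT474m1, where 11.1% and 14% of all genes rose and 9.44% and 8.06% fell. ULBP1 was the one that rose, from 30.4 to 94.6 and from 31.5 to 82.0. ULBP3 (83.3 to 23.8 and 47.3 to 19.1) and RAET1E (17.9 to 6.13 and, at low values, 2.83 to 0.602) fell in both lines, MICB in SKBR-3 (3.58 to 0), and MICA and ULBP2 in BT474m1.

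Within each line, the 9 genes did not form a single pattern over the treatments. Over the 8 libraries, centred on the mean of their line, Pearson's r was 0.93 between TAP2 and PSMB9, 0.91 between TAP1 and PSMB8 and 0.84 between TAP1 and its neighbour PSMB9. It was -0.90 between B2M and TAP1 and -0.84 between B2M and PSMB8, and -0.72 between HLA-B and HLA-E. These values are the highest and lowest of 36 pairs, and describe 8 libraries that share 4 treatments. PSMB9 had 6 to 9 reads in every SKBR-3 library, so that its values of r rest mostly on BT474m1. The genes outside the list whose values were most like the mean profile of the 9 were ZDHHC9 (r = 0.993), SCNN1A (0.979), RAB13 (0.977), CDYL2 (0.976), SOCS5 (0.972), ZCCHC3 (0.971), SLC7A8 (0.971), HIVEP2 (0.967), KIAA0040 (0.967) and DNAJB12 (0.967), of 8226 genes ranked. That mean profile spanned only 0.68 on the log2 scale.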

How the data were processed

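RNA was sequenced from SKBR-3 and BT474m1 cells after 48 h of treatment, per the labels; the study's methods text names 24 h for its lines in general, and the labels were followed. Groups came from the labels, 1 library each. The tables hold 1 signal value per gene, an RSEM estimate that the authors scaled to an upper quartile of 1000 among genes above 0. The submitters' processing notes name hg19, Picard 1.88, SAMtools 1.2, RSEM, DESeq, R 3.2.2 and DESeq2 1.12.3, whereas the study's methods name hg38, STAR and Salmon, so that the build is uncertain. The labels name both a TruSeq v2 and a stranded KAPA kit, and whether counting used strand is not given in the sources used here. PSMB8 and TAP1 overlap an antisense gene (PSMB8-AS1) in RefSeq, and reads of both cannot be told apart without strand.

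The value of 1 read was recovered as the step between values (0.471 to 0.766 units). With it, 83.6% to 86.3% of values above 0 were within 0.05 of a whole read. Depth was 21419990 to 34112250 reads on genes. Genes with 10 units or more in at least 1 library were kept (14429, with 6102 removed). Log2 fold changes are differences of log2(value + 1), and understate changes of low genes. A gene was called changed ("rose", "fell") at 2-fold, a size rule and not a test; 11 comparisons were made. Intervals are 95% exact Clopper-Pearson intervals on recovered reads; they and the floor of 3 reads (1.41 to 2.30 units) cover counting error only, since without molecular identifiers PCR copies cannot be counted as separate molecules. The 9 genes and 14 lists (135 genes) were chosen with earlier results of these data known, and the results for some genes of the lists are not reported here. The named genes were the 9, list genes changed at least 2-fold the same way in both lines, given in a count of 5 or fewer or called for by their role, and the 10 genes most alike in profile, of those with 100 units or more in every library. The marker genes COL1A1, CD68, LYZ, CDH1, ERBB2, KRT8, KRT18 and KRT19 were named after their values were seen. Simulated data were used to test the method. Alternatives were a pseudocount of 10, median of ratios scaling, equal totals, no filter, a filter at 100, a 1.5-fold threshold and leaving out HLA-B, HLA-C and HLA-E; requiring the interval to exclude no change was chosen after seeing the data. Scripts ran in Python 3.11.15 (scipy 1.17.1, pandas 2.3.3, numpy 2.4.6), and figures were drawn with matplotlib 3.10.9.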

Additional observations from a re-analysis of the deposited data

Results flagged for a closer look

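In all, 4 results had opposite signs in the lines with counting intervals that excluded 0 in both, and with 1 library per group the differences between lines were not tested. HLA-C with lapatinib against DMSO had a log2 fold change of 0.64 in SKBR-3 and -0.50 in BT474m1. TAPBP with both drugs against DMSO had 0.61 (SKBR-3) and -0.50 (BT474m1). With both drugs against lapatinib, HLA-C had -0.78 in SKBR-3 and 0.41 in BT474m1. In the same comparison TAP2 had 0.31 in SKBR-3 and -0.59 in BT474m1.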

How the results depend on the processing

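No replicate block was fitted, since the labels give no replicate numbers and each group held 1 library. A fit with the lines as blocks and each treatment's libraries of both lines as replicates was not run. No replicate could be left out either, so that the results carry no measure of the spread between cultures, and PSMB9 in SKBR-3 rests on few reads. Of 484 values of single genes under 5 alternatives, 7 changed sign, among them HLA-E with JQ1 in SKBR-3 (0.13, and -0.01 with equal totals), and none of the values after the change was beyond 0.08 in size. Leaving out the filter, or requiring the interval to exclude no change, left every count of genes as it was.

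Other counts moved. With the threshold at 1.5-fold, the genes higher and lower were 3 and 1 with lapatinib in SKBR-3, 1 and 1 with lapatinib in BT474m1, 1 lower with JQ1 in SKBR-3 and 5 lower in BT474m1, 3 higher with both drugs in SKBR-3, and 2 higher and 5 lower in BT474m1. Against lapatinib, both drugs then gave 1 higher and 2 lower in SKBR-3 and 1 and 5 in BT474m1, and against JQ1 2 higher in SKBR-3 and 3 higher and 1 lower in BT474m1. Between the lines 4 genes were then higher in BT474m1, with TAPBP, and 2 lower, HLA-E and TAP2. The shares of all genes at 1.5-fold, higher and lower, were 23.2% and 18.8% (SKBR-3) and 24.8% and 15.6% (BT474m1) with lapatinib, 9.49% and 21.5%, and 11.9% and 21.1% with JQ1, and 21.5% and 31.9%, and 24.8% and 24.6% with both drugs. They were 8.52% and 27%, and 12.7% and 20.9% for both drugs against lapatinib, 21% and 23%, and 22.4% and 14.5% against JQ1, and 37.4% and 24.2% between the lines. With equal totals, 0 genes rose with lapatinib in SKBR-3 (TAPBP at 0.96) and 0 with JQ1 in either line (B2M at 0.89 and 0.99), 1 fell with JQ1 in SKBR-3 (PSMB8 at -1.09), and 2 rose with both drugs in BT474m1 (B2M at 1.01). Scaling by the median of ratios gave 0 higher with lapatinib in SKBR-3, 1 higher with both drugs against lapatinib in SKBR-3 (B2M at 1.07) and 2 lower between the lines (HLA-E at -1.09 and TAP2 at -1.08). A pseudocount of 10 left 1 lower with both drugs in BT474m1 against either DMSO or lapatinib (PSMB9 at -0.90 and -0.84), and a filter at 100, which removes PSMB9, also left 1 in each. That filter also takes PSMB9 out of the genes that fell with JQ1 in BT474m1 and out of those higher between the lines. Without HLA-B, HLA-C and HLA-E, 0 rose with both drugs in BT474m1 and 1 was higher between the lines.

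The median over the genes moved with lapatinib in SKBR-3 to 0.13 (equal totals), 0.37 (filter at 100) and 0.09 (without the heavy chains). With JQ1 in BT474m1 it moved to -0.45 (filter at 100) and -1.06 (without the heavy chains), with both drugs against lapatinib to -0.34 (filter at 100), and against JQ1 to 0.16 and 0.40. Between the lines it was 0.19 with the median of ratios. These scalings shifted the log2 fold changes of well measured genes by over 0.1 with JQ1 in SKBR-3 (-0.15, equal totals), with both drugs in SKBR-3 against DMSO and lapatinib (0.14 and 0.16, median of ratios) and between the lines (-0.16, median of ratios). With JQ1 in SKBR-3 the median of all genes went from -0.08 to -0.22.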
